A study of Mus musculus with 9 samples.

Results

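Insulin-like growth factor 1 (Igf1), its receptor (Igf1r) and the binding proteins Igfbp2 to Igfbp7 were followed across 3 kinds of mouse cells. The set was chosen by gene symbol and holds 8 of the 18193 genes that had a probe set annotated to 1 symbol. All probe sets annotated to 1 of these symbols were used, which gave 24 of the 45101 probe sets in the table. Total RNA was hybridised to 1-colour Affymetrix arrays, with 3 arrays per group and 9 arrays in all.

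Chemically induced cardiomyocyte-like cells (CiCM) had been made from mouse embryonic fibroblasts with 6 small molecules, and their beating clusters were picked on day 24. The molecules were CHIR99021 at 10 µM, RepSox at 10 µM, forskolin at 50 µM, valproic acid (VPA) at 0.5 mM, Parnate at 5 µM and TTNPB at 1 µM. CHIR99021 inhibits the kinase GSK3, RepSox the TGF-beta receptor kinase, VPA histone deacetylases and Parnate the demethylase LSD1 and monoamine oxidases, while forskolin raises cAMP and TTNPB activates retinoic acid receptors. Cardiomyocytes (CM) were taken straight from mouse hearts, and the labels give neither the strain nor the age of those mice. Mouse embryonic fibroblasts (MEF) came from C57BL/6 embryos at embryonic day 13.5. The titles call the arrays of a group biological replicates without naming animals or cultures. The p-values therefore weigh a difference against the spread between these samples, pooled over all groups. The labels describe MEF and CM as taken directly from embryos and hearts and CiCM as made in vitro, so induction and time in culture cannot be told apart in comparisons with CiCM.

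IGF1 is a secreted growth factor that binds the receptor tyrosine kinase IGF1R, which signals through insulin receptor substrates, PI3-kinase and Akt to cell growth and survival. In the body it is carried and held back by IGF-binding proteins, which bind IGFs with high affinity, except IGFBP7, whose affinity is low. Proteases such as pregnancy-associated plasma protein A cut the binding proteins and release the growth factor. In muscle, IGF1 is known as a signal for fibre growth and myoblast differentiation, and in the heart for cardiomyocyte growth and survival.

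The windows of 250 bases before the annotated gene start are printed for the 5 members that were called in either comparison with MEF, so that the start region of each can be read beside its level. The sequences are RefSeq's on build GRCm38.p6, given 5′ to 3′ on the strand of the gene. All 8 members matched a promoter entry by gene symbol. Capitals mark a GC box (GGGCGG or its complement CCGCCC) or a muscle E-box (CAGCTG, which reads the same on both strands). The windows lie at chr10:87860861-87861110 (plus strand) for Igf1, chr7:67952007-67952256 (plus) for Igf1r, chr1:72824230-72824479 (plus) for Igfbp2, chr11:7213924-7214173 (minus) for Igfbp3 and chr1:72874866-72875115 (minus) for Igfbp5. Igfbp2 has a further annotated start, and the window shown is that of its first entry.
Igf1: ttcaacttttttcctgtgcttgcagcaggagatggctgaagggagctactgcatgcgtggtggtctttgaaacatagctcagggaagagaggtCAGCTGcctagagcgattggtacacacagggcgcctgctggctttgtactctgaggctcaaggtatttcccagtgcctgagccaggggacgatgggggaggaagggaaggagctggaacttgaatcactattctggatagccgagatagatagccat
Igf1r: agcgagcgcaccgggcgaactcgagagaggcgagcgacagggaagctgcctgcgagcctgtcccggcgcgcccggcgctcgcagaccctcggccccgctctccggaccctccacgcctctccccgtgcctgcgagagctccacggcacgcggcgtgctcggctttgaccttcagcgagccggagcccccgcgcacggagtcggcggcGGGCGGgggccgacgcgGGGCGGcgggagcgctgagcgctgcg
Igfbp2: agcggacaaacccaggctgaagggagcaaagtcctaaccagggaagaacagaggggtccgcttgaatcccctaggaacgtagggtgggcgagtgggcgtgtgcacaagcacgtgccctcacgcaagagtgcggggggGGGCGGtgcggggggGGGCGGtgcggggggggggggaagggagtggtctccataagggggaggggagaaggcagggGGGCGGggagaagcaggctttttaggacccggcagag
Igfbp3: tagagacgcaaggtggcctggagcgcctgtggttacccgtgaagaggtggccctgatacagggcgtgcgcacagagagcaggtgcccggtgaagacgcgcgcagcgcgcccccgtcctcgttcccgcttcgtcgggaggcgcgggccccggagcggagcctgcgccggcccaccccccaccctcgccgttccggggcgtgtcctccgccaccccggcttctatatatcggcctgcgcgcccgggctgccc
Igfbp5: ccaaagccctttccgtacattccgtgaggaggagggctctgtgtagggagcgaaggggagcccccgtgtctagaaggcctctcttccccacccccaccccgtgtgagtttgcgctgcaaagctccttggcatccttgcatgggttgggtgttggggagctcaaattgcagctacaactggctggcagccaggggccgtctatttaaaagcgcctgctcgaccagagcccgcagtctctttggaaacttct

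The Igf1 window held 52.8% G and C and 5 CpG dinucleotides, close to the median of 52.4% G and C over 32841 promoters. The Igf1r window was far richer, with 77.6% G and C and 42 CpG, a G and C content reached by 2.35% of promoters. Igfbp3 had 73.2% and 32 CpG, Igfbp2 67.2% and 14 CpG, and Igfbp5 58.8% and 10 CpG. On either strand, CAGCTG occurred once, in the Igf1 window, and 13% of all promoters hold it. GGGCGG occurred 2 times in the Igf1r window and 3 times in that of Igfbp2, with 4 matches in either orientation for Igfbp7, and 32.7% of promoters hold it. TATAAA and TGACG were searched as well, on both strands. TATAAA or its complement is found in 12.4% of promoters and lay in the windows of Igfbp4 and Igfbp6, and TGACG is found in 17.8% of promoters and lay in no window of the members. A match in these letters is a description of the sequence and no evidence of binding.

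Signals are on the deposited log2 scale, where a difference of 1 is a doubling of the signal. Each gene was read from its probe set with the highest mean, and a gene was tested where its highest group mean reached 6.58, the median of the table. All 8 members and 12559 genes in all passed that line. A gene is called here where limma's adjusted p was under 0.05 and the log2 difference at least 1. With 3 arrays in each group, the smallest p of an exact permutation test is 0.1, so single genes rest on the spread shared in the fit of all 9 arrays. Levels are compared for each gene between groups and not between genes.

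CM replicate 1 differed from the rest of its group. It carried several atrial and fat genes far above the other CM arrays, with Sln at 14.95 against 8.14 and 2.97, Myl7 at 15.05 against 9.25 and 5.98, and Adipoq at 13.50 against 6.21 and 5.09. In this array 3.70% of tested genes lay at least 1 above both other arrays of the group, while for the other arrays this share was between 0.549% and 1.11%. Among the members 4 of 8 did so, namely Igfbp3, Igfbp4, Igfbp5 and Igfbp6. The summed signal of the cardiomyocyte markers differed little among the CM arrays, at 18.24, 18.61 and 18.46. Among these markers Nppa was at 15.24 in CM replicate 1, against 12.50 and 12.05 in the other CM arrays. For each member the differences from CM are given without this array as well, and for pathway genes where a count or a call moved.

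Markers of other cell types moved with the groups. The 8 endothelial markers had a summed log2 signal of 8.34 to 8.90 in CiCM, 13.75 to 13.89 in CM and 9.34 to 9.90 in MEF, and all 8 were called higher in CM than in MEF. The 13 macrophage markers summed to 12.29 to 13.06 in CiCM, 14.59 to 15.03 in CM and 15.26 to 15.38 in MEF, and all 13 were called lower in CiCM than in MEF. The 8 fibroblast markers were at 16.70 to 16.76 in CiCM, 15.15 to 15.55 in CM and 16.54 to 16.57 in MEF. Their sum hides opposite moves, since 6 were called lower and 2 higher in CM against MEF. Col1a1 had a mean of 8.58 in CM and 13.32 in MEF, whereas Dcn had 14.03 and 12.11 and Lum 12.68 and 9.60. In CiCM against MEF 2 were called higher and 1 lower. All 8 skeletal muscle markers were called in CiCM against MEF, each higher, and summed to 16.69 to 16.84 in CiCM, 13.95 to 15.00 in CM and 7.19 to 7.97 in MEF. In each CM array 7 of these 8 were under the 6.58 line, and Ckm, the muscle creatine kinase that heart muscle also expresses, was at 13.93, 14.97 and 14.99. Of the 9 cardiomyocyte markers, CiCM had 7 called higher against MEF and 9 called lower against CM, and Ryr2 in CiCM stayed at 4.93, 4.71 and 5.94, against 13.91, 14.16 and 14.34 in CM. The 7 smooth muscle and pericyte markers summed to 14.97 to 15.25 in CiCM, 14.83 to 15.25 in CM and 15.90 to 15.93 in MEF. Of these 7, CiCM against CM had 3 called higher and 1 lower, the pericyte gene Rgs5, which was at 9.44, 8.39 and 8.62 in CiCM, 14.15, 14.46 and 14.55 in CM and 9.72, 9.60 and 9.32 in MEF. The part of these cells in the members' levels was not tested.

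Igf1, the ligand, was higher in CiCM than in fibroblasts and in heart cells. Its log2 signal was 11.90, 12.42 and 12.35 in CiCM, 10.13, 10.18 and 9.75 in CM and 10.37, 10.05 and 10.13 in MEF. All CiCM arrays lay above all arrays of the other groups, and the CM and MEF arrays overlapped. The level in CiCM was 2.04 ± 0.16 (SE) above MEF, a 4.11-fold signal (adjusted p = 2.88e-06), and 2.20 ± 0.16 above CM, a 4.60-fold signal (adjusted p = 9.85e-07). Between CM and MEF the difference was -0.16, with a 95% interval from -0.52 to 0.20 (adjusted p = 0.384). It was -0.53 with centring on the array medians (adjusted p = 0.00831) and -0.97 with levelling on hybridisation controls (adjusted p = 0.00321). With the mean over probe sets it was -0.42 (adjusted p = 0.0445), and all of these were under the minimum difference. With CM replicate 1 left out, CiCM was 2.26 ± 0.18 above CM, and CM differed from MEF by -0.22 (adjusted p = 0.284). In RNA from bulk cells, a higher signal from more cells of a kind and a higher signal per cell cannot be told apart.

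Igf1 had 4 probe sets on the array and all 4 passed the signal line. Each was called higher in CiCM than in either other group, and none was called between CM and MEF. Of all tested probe sets 24.1% were called in CiCM against MEF, 35.4% in CiCM against CM and 45.1% in CM against MEF. The second probe set (1434413_at) had 11.98, 12.24 and 12.48 in CiCM, 10.34, 10.19 and 9.62 in CM and 9.87, 9.61 and 9.81 in MEF. The dimmest probe set (1419519_at) had 10.23, 10.60 and 10.68 in CiCM, 7.99, 7.93 and 7.19 in CM and 8.66, 8.53 and 8.76 in MEF. On that probe set the CM arrays lay below the MEF arrays without overlap, whereas on 1434413_at these groups overlapped. The difference of CM from MEF was -0.94 on 1419519_at (adjusted p = 0.0024) and -0.85 on 1452014_a_at (adjusted p = 0.00136), both under the minimum difference. On 1434413_at it was 0.28 (adjusted p = 0.194). The order of CM and MEF thus differed between probe sets, while CiCM lay above both on all 4.

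Igf1r, the receptor that carries the signal across the membrane, ran the other way between CiCM and MEF. The signal was 9.44, 9.69 and 10.00 in CiCM, 9.87, 9.92 and 9.82 in CM and 10.79, 10.76 and 10.77 in MEF. The MEF arrays lay close together and above all other arrays, and the CiCM and CM arrays overlapped. CiCM was 1.06 ± 0.13 below MEF (adjusted p = 6.65e-05), and its difference from CM was -0.16, with a 95% interval from -0.45 to 0.13 (adjusted p = 0.292), a sign that turned with centring on the array medians (0.15), with levelling on hybridisation controls (0.41) and with the mean over probe sets (0.32). CM was 0.90 ± 0.13 below MEF (adjusted p = 0.000103), which is under the minimum difference of 1 but passed it with centring on the array medians (-1.27), levelling on hybridisation controls (-1.71) and the mean over probe sets (-1.15). The differences without CM replicate 1 were -0.16 for CiCM minus CM and -0.90 for CM minus MEF.

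The 5 probe sets of Igf1r split into 3 bright ones and 2 dim ones. All 3 bright probe sets were called lower in CiCM than in MEF, and 2 of them were called lower in CM than in MEF. On 1426565_at the signal was 8.46, 8.86 and 9.49 in CiCM, 8.28, 8.20 and 8.52 in CM and 10.57, 10.47 and 10.34 in MEF. The dim probe sets, 1446303_at and 1452108_at, averaged between 6.70 and 7.51 in every group, and neither was called in a comparison. The call between CiCM and MEF was lost with the mean over all 5 probe sets (-0.83), without CiCM replicate 1 (-0.93) and with the largest constant added to the linear signals (-0.96), each under the minimum difference.

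**Figure D1:**
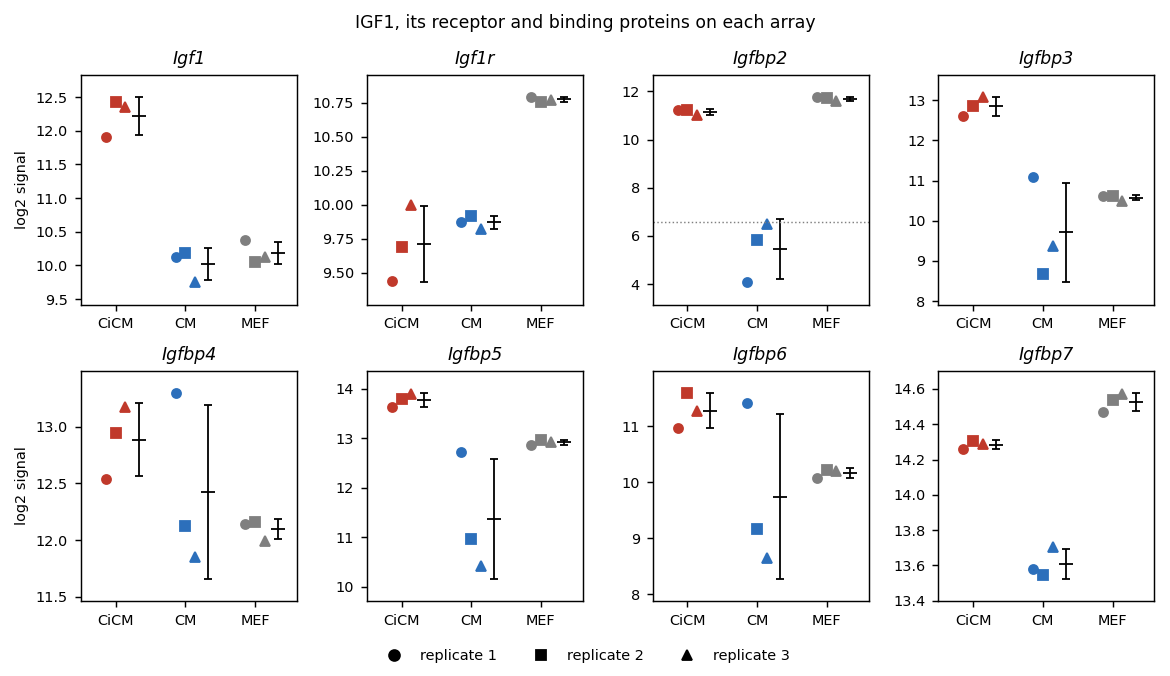
Log2 signal of the 8 members on each of the 9 arrays, 1 panel per gene, with CiCM, CM and MEF from left to right, marker shapes for replicates 1 to 3, bars for mean ± SD, a dotted line at 6.58 and a y axis of its own in each panel. Igf1 and Igfbp3 sit higher in CiCM than in both other groups, Igfbp2 is low in CM alone, and 1 CM array lies far above the other CM arrays for Igfbp3, Igfbp5 and Igfbp6.

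Igfbp2 gave the widest difference of the family. This binding protein, which is abundant in fetal tissues, had a log2 signal of 11.23, 11.22 and 11.01 in CiCM, 4.08, 5.85 and 6.48 in CM and 11.77, 11.70 and 11.60 in MEF. CiCM and MEF lay far above CM, whose arrays were all under the 6.58 line. CiCM was 5.69 ± 0.46 above CM, a 51.5-fold signal (adjusted p = 1.95e-06), and CM 6.22 ± 0.46 below MEF, 74.6-fold lower (adjusted p = 5.69e-07). These folds depend on CM replicate 1, the lowest array, and without it CiCM was 4.99 ± 0.17 above CM, or 31.8-fold (adjusted p = 3.05e-09), and the difference of CM from MEF was -5.53 ± 0.17, or 46.1-fold lower (adjusted p = 7.24e-10). A signal as low as that of CM gives an uncertain fold, and with 32 added to every linear signal the differences came to 4.84 and -5.37. Between CiCM and MEF the arrays did not overlap, and the difference was -0.54 (95% interval from -1.56 to 0.49, adjusted p = 0.355). Its SE is shared with the CM arrays, whose SD was 1.25, against 0.12 in CiCM and 0.08 in MEF. In the fit of only CiCM and MEF the adjusted p was 0.00021, and without CM replicate 1 it was 0.0109. The difference stayed under 1 in both, so it was not called. Igfbp2 had 1 probe set, so no further reading of it was available.

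Igfbp3, the main carrier of IGFs in serum, was higher in CiCM than in both other groups. Its log2 signal was 12.60, 12.87 and 13.07 in CiCM, 11.08, 8.66 and 9.38 in CM and 10.61, 10.61 and 10.49 in MEF. The CiCM arrays lay above all others, and the CM arrays lay on both sides of MEF. CiCM exceeded MEF by 2.27 ± 0.46, a 4.84-fold signal (adjusted p = 0.00196), and CM by 3.14 ± 0.46, an 8.82-fold signal (adjusted p = 0.000153). Between CM and MEF the difference was -0.87 with all arrays (adjusted p = 0.116) and -1.55 ± 0.19 without CM replicate 1 (adjusted p = 3.18e-05), where it was called. It was -0.34 without CM replicate 2 (adjusted p = 0.452) and -0.70 without CM replicate 3 (adjusted p = 0.264). With all arrays it was also called with centring on the array medians (-1.23), levelling on hybridisation controls (-1.67) and array weights (-1.10). Without CM replicate 1, CiCM stood 3.83 ± 0.19 above CM. The second probe set (1458268_s_at) had 12.17, 12.17 and 12.54 in CiCM, 10.22, 8.58 and 8.81 in CM and 10.18, 10.18 and 10.15 in MEF, with both CiCM comparisons called as well.

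Igfbp4, an inhibitor of IGF action that pregnancy-associated plasma protein A cuts, was called in no comparison with the deposited scaling. Its log2 signal was 12.54, 12.95 and 13.17 in CiCM, 13.29, 12.13 and 11.86 in CM and 12.14, 12.16 and 11.99 in MEF. The CiCM arrays lay above the MEF arrays without overlap, and CM replicate 1 was the highest array of all 9. The difference of CiCM from MEF was 0.79 (95% interval from 0.11 to 1.47, adjusted p = 0.0521) and from CM 0.46 (adjusted p = 0.208). Without CM replicate 1 these were 0.79 (adjusted p = 0.000783) and 0.90 (adjusted p = 0.000559), both under the minimum difference. In the fit of only CiCM and MEF the adjusted p was 0.000574, with the difference of 0.79 unchanged. That of CM from MEF was 0.33 (adjusted p = 0.358), and its sign turned without CM replicate 1 (-0.11), with centring on the array medians (-0.039), with levelling on hybridisation controls (-0.48) and with the mean over probe sets (-0.092). None of its 6 probe sets was called in any comparison, and CM replicate 1 lay at least 1 above both other CM arrays on 5 of them.

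Igfbp5, a binding protein known to be made by differentiating myoblasts, was lower in CM than in CiCM and MEF. Its log2 signal was 13.63, 13.79 and 13.91 in CiCM, 12.73, 10.96 and 10.42 in CM and 12.87, 12.97 and 12.93 in MEF. The 3 groups did not overlap, and CM replicate 1 came nearest to the MEF arrays. CiCM exceeded CM by 2.40 ± 0.44 (adjusted p = 0.000762), and CM was 1.55 ± 0.44 below MEF (adjusted p = 0.00934). Without CM replicate 1 these differences were 3.09 ± 0.14 and -2.23 ± 0.14. CiCM was 0.85 above MEF (95% interval from -0.13 to 1.84, adjusted p = 0.133). The adjusted p was 0.000191 without CM replicate 1 and 4.46e-06 in the fit of only CiCM and MEF, with the difference under 1 in both. On the second probe set (1422313_a_at), the signal of CiCM at 9.59, 9.35 and 8.77 overlapped that of MEF at 9.26, 9.30 and 9.22, while CM at 7.21, 5.74 and 6.85 was again called lower than both.

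Igfbp6, a binding protein with a preference for IGF2, was where the CM arrays disagreed most. On its probe set the signal was 10.97, 11.59 and 11.28 in CiCM, 11.41, 9.17 and 8.65 in CM and 10.07, 10.22 and 10.20 in MEF. CM replicate 1 lay among the CiCM arrays and the other CM arrays under all MEF arrays. CiCM exceeded CM by 1.53 ± 0.55 (adjusted p = 0.0301), and by 2.37 ± 0.19 without CM replicate 1. The call was lost in the fit of only these groups (adjusted p = 0.0532) and in the fit without a variance trend (adjusted p = 0.0607). It was also lost without CiCM replicate 2 (1.38), CiCM replicate 3 (1.53), CM replicate 2 (1.25) or CM replicate 3 (0.99), with adjusted p between 0.0683 and 0.117. Against MEF, CiCM was higher by 1.11 with all arrays (adjusted p = 0.112) and by 1.11 ± 0.17 without CM replicate 1 (adjusted p = 0.000246), where it was called. It was also called in the fit of only CiCM and MEF (adjusted p = 6.62e-05) and with array weights (1.22, adjusted p = 0.00265). Under 21 of 24 alternatives it stayed uncalled. CM was 0.42 below MEF with all arrays (adjusted p = 0.509) and 1.25 ± 0.19 below without CM replicate 1, where it was called. Without CM replicate 3 that difference was 0.13.

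Igfbp7, a secreted protein of the vessel wall and matrix that also binds insulin, differed between groups by small and tight amounts. The main probe set had a log2 signal of 14.26, 14.31 and 14.29 in CiCM, 13.58, 13.54 and 13.71 in CM and 14.47, 14.54 and 14.57 in MEF. The groups did not overlap, with MEF highest and CM lowest. CiCM was 0.68 ± 0.07 above CM (adjusted p = 1.81e-05) and CM 0.92 ± 0.07 below MEF (adjusted p = 1.13e-06), both under the minimum difference. CiCM lay 0.24 ± 0.07 below MEF (adjusted p = 0.0195). The difference of CM from MEF passed 1 and was called with quantile normalization (-1.28), centring on the array medians (-1.28), levelling on hybridisation controls (-1.72) and the mean over probe sets (-1.29). That of CiCM from CM was called with levelling (1.25) and with the mean over probe sets (1.01). Leaving out CM replicate 1 gave differences of 0.66 for CiCM minus CM and -0.90 for CM minus MEF. The dimmer probe set (1423585_at) put CiCM at 9.37, 9.43 and 9.08, CM at 7.74, 7.75 and 7.85 and MEF at 9.36, 9.31 and 9.28. On that probe set CiCM was called 1.52 higher than CM, and CM 1.54 lower than MEF. A further probe set (1437804_at) stayed under the signal line in every group mean.

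**Figure D2:**
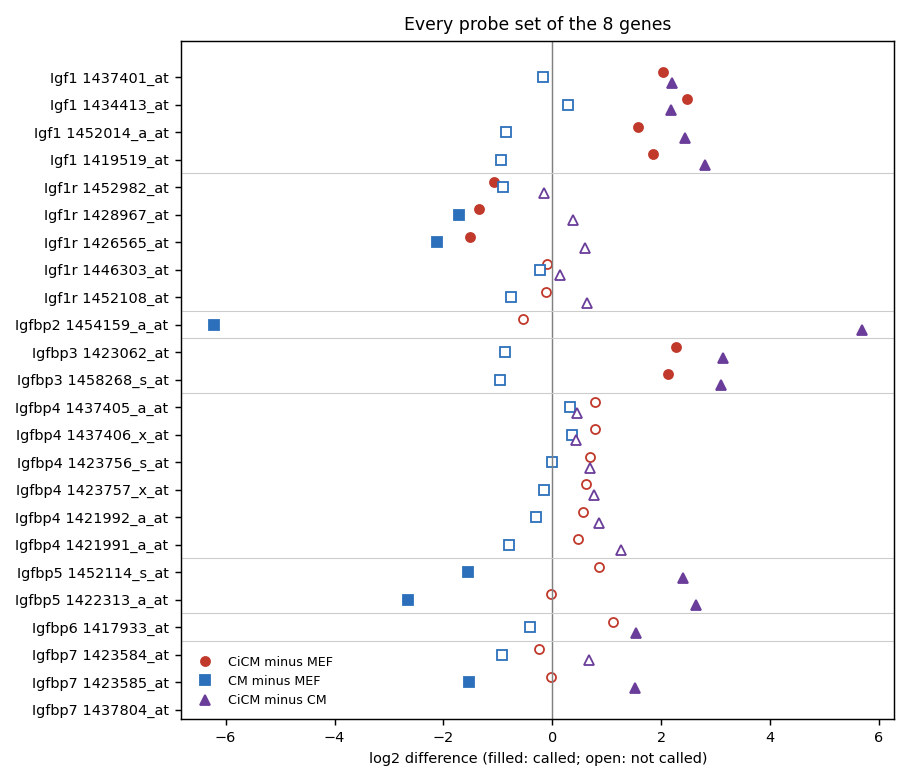
Log2 differences of the 24 probe sets of the 8 members, for CiCM minus MEF, CM minus MEF and CiCM minus CM, with open points for differences that were not called. The row of 1437804_at is empty because its group means were under 6.58, the 4 Igf1 probe sets all lie above 1 in CiCM minus MEF and in CiCM minus CM and on both sides of 0 in CM minus MEF, and those of Igf1r spread from near 0 to below -1 against MEF.

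Counted over the family, 3 of 8 members were called in CiCM against MEF, against 23.8% of all tested genes. Igf1 and Igfbp3 were higher and Igf1r lower, where 11.6% of all tested genes were higher and 12.2% lower. In CM against MEF 2 of 8 were called, both lower, against 43.9% of all tested genes called in either direction, 22.1% higher and 21.8% lower. In CiCM against CM 5 of 8 were called, all higher, against 35.5% in either direction, 16.5% higher and 19.0% lower. The comparisons share groups of arrays, so their counts are not independent of each other.

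Without CM replicate 1 the counts were 4 of 8 in CiCM against MEF (24.3% of all tested genes), 4 of 8 in CM against MEF, all lower (45.0% in either direction and 23.1% lower), and 5 of 8 in CiCM against CM, all higher (36.4% in either direction and 17.7% higher). Over the 23 probe sets past the signal line, 6 were called higher and 3 lower in CiCM against MEF (24.1% of 22805 probe sets, 11.3% higher and 12.7% lower). In CM against MEF 6 were called lower and none higher (45.1% in either direction and 23.1% lower), and in CiCM against CM 11 were called higher and none lower (35.4% in either direction and 16.8% higher).

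The arrays of CiCM and MEF did not overlap for 8 of 8 members, which held for 68.5% of all tested genes. This was so for 4 of 8 members between CM and MEF (75.2%) and for 5 of 8 between CiCM and CM (67.9%). The median difference over the 8 members was 0.82 for CiCM minus MEF, -0.88 for CM minus MEF and 1.87 for CiCM minus CM. These medians were 0.82, -1.08 and 2.31 without CM replicate 1. Over all tested genes it was -0.03 in each of these comparisons, with and without that array. Centring and levelling move every gene alike. The shift was -0.06 for CiCM minus MEF, -0.37 for CM minus MEF and 0.31 for CiCM minus CM with centring on the array medians. It was -0.23, -0.80 and 0.58 with levelling on hybridisation controls. Quantile normalization does not move genes alike, and took CM minus MEF from -0.92 to -1.28 for Igfbp7 and from -0.16 to -0.08 for Igf1.

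**Figure D3:**
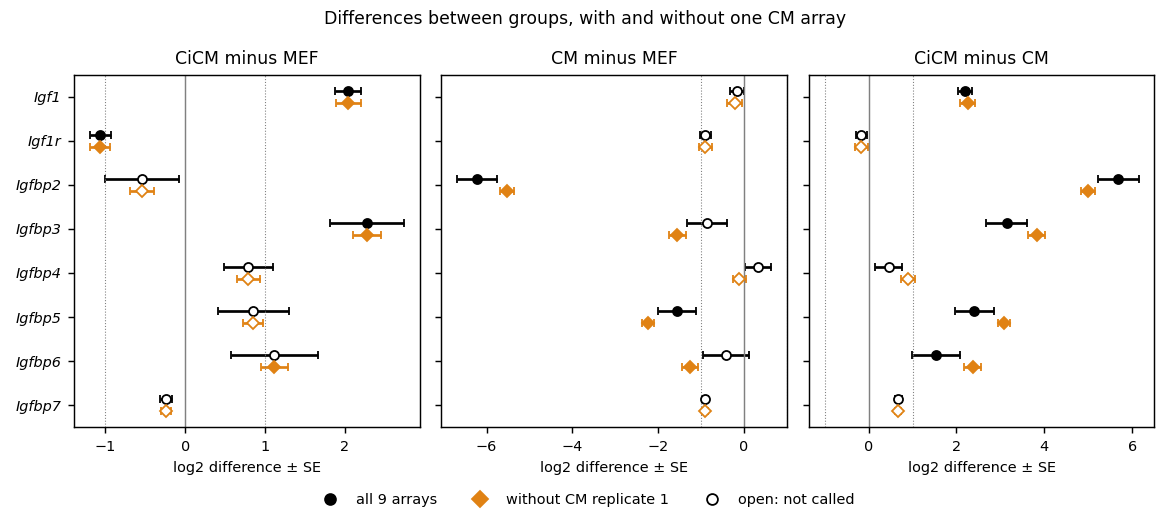
Log2 differences of the 8 members with all 9 arrays (black circles) and without CM replicate 1 (orange diamonds), bars for SE, open marks for differences that were not called and dotted lines at differences of 1 and -1. Igfbp3, Igfbp5 and Igfbp6 move down in CM minus MEF when the array is left out, and Igf1 and Igf1r hardly move.

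Within the CM group 4 of the binding proteins were high in the array that carried atrial and fat genes. CM replicate 1 exceeded the mean of the other CM arrays 4.16-fold for Igfbp3, 2.47-fold for Igfbp4, 4.12-fold for Igfbp5 and 5.65-fold for Igfbp6. Igf1, Igf1r and Igfbp7 in that array lay no more than 0.13 below the higher of the other arrays and none lay above it, while Igfbp2 in that array was at 4.08, against 5.85 and 6.48. In the same array the 3 atrial markers summed to 16.56, against 10.74 and 8.64 in the other CM arrays. Of 4 fat cell markers 1 was under the signal line in CM replicate 1 and 3 were in each other CM array. The fat gene Cidec was at 10.70 against 1.81 and 0.00, whereas Fabp4, which capillary endothelium also expresses, was at 15.00 against 15.20 and 15.25. Fibroblast markers summed to 15.54 against 15.55 and 15.15, and endothelial markers to 13.81 against 13.75 and 13.89. The part of atrial or fat tissue in the levels of Igfbp3, Igfbp4, Igfbp5 and Igfbp6 was not tested.

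**Figure D4:**
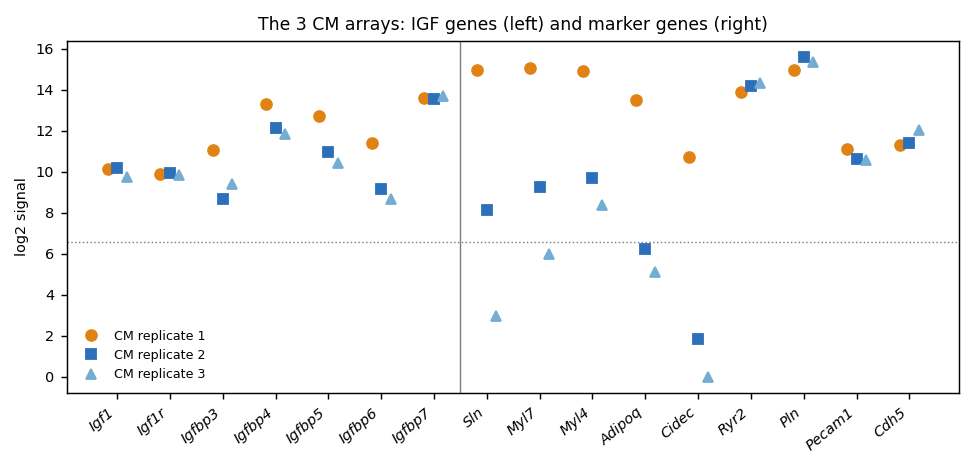
Log2 signal in the 3 CM arrays of 7 members (left) and of marker genes (right), 1 point per array. CM replicate 1 stands above the others for Igfbp3, Igfbp4, Igfbp5, Igfbp6, Sln, Myl7, Myl4, Adipoq and Cidec, and the 3 arrays lie close together for Igf1, Igf1r, Igfbp7, Ryr2, Pln, Pecam1 and Cdh5.

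The family split by pattern over the 9 arrays. Pearson's r was 0.899 for Igfbp3 and Igfbp5, 0.896 for Igfbp5 and Igfbp6, 0.892 for Igf1 and Igfbp3 and 0.868 for Igfbp4 and Igfbp6. Igfbp2 followed Igfbp7 at 0.966, and both were lowest in CM. Igf1 and its receptor had an r of -0.50. These values rest on 3 groups of 3 arrays that share 1 scaling, and CM replicate 1, in which Igfbp3, Igfbp4, Igfbp5 and Igfbp6 were all high, is among them. They describe these arrays and are given without a test.

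The genes most like each member over the 9 arrays were taken by Pearson's r from 7210 candidates (7211 for Igfbp4 and Igfbp7) whose group means spanned at least 1. They were Muc1 (r = 0.991) and Abhd8 (r = 0.988) for Igf1, and Spi1 (r = 0.989) and Tbc1d31 (r = 0.987) for Igf1r. Spi1 encodes PU.1, a transcription factor of myeloid cells. The summed signal of the macrophage markers was also highest in MEF, with 3 of the 13 called lower in CM than in MEF (21.8% of all tested genes). In CiCM against CM 9 of the 13 were called lower (19.0% of all tested genes), where Igf1r was not called (-0.16). The part of macrophages in the level of Igf1r was not tested. For Igfbp3 they were Nr4a3 (r = 0.992), a nuclear receptor gene, and Cnnm2 (r = 0.988), and for Igfbp5 Tspan5 (r = 0.993) and Cdon (r = 0.991), which encodes a surface receptor of myoblasts. Igfbp2 was nearest to Mir22hg and Ppic (both r = 0.995) and Igfbp7 to Eid2 and Trim27 (both r = 0.997). Igfbp4 had the least close neighbours, Aldh1l1 (r = 0.929) and Aspa (r = 0.925), and Igfbp6 was nearest to Efemp1 (r = 0.969) and Hp (r = 0.967).

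Of 53 further genes of the pathway, 49 had a probe set with 1 symbol and 44 were tested. In CiCM against MEF 7 were called higher and 5 lower, in CM against MEF 14 higher and 9 lower, and in CiCM against CM 8 higher and 11 lower. Of all tested genes 23.8%, 43.9% and 35.5% were called in these comparisons. The count in CiCM against CM was 9 higher and 10 lower without CM replicate 1. The median differences of the 44 genes in the 3 comparisons were -0.02, 0.25 and -0.12, against -0.03 over all tested genes. Calls near the minimum difference can be lost with centring or levelling, whose shifts are given above.

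Among the other ligands and receptors none of 4 tested genes was called in CiCM against MEF. Igf2, the fetal growth factor that also acts through IGF1R, was at 14.30, 14.42 and 14.51 in CiCM, 10.80, 10.10 and 9.89 in CM and 14.15, 14.16 and 14.07 in MEF. The CM arrays lay far under all others, by 4.14 ± 0.19 against CiCM (adjusted p = 3.64e-08) and 3.86 ± 0.19 against MEF (adjusted p = 2.69e-08). Insr, the insulin receptor, was called 1.84 lower in CiCM than in CM, at a mean of 9.40 ± 0.18 in CiCM, 11.23 ± 0.23 in CM and 9.41 ± 0.05 in MEF (SD, n = 3 each). Igf2r, which takes up IGF2 for breakdown, was called in no comparison, at 13.02 in CiCM, 12.70 in CM and 13.05 in MEF.

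Lrp1, an endocytic receptor that binds IGFBP3, was called 1.36 higher in CiCM than in CM and 1.41 lower in CM than in MEF. On its second probe set the difference of CM from MEF had the other sign, at 0.67. Insrr, a relative of the insulin receptor, and the binding protein genes Igfbp1 and Igfbpl1 stayed under the signal line in all groups. Igfals, the acid-labile subunit of the serum IGFBP3 complex, was called 2.48 lower in CiCM than in CM at dim signals of 2.94, 4.03 and 5.66 in CiCM, 7.04, 6.18 and 6.85 in CM and 5.70, 5.18 and 5.44 in MEF. Without CM replicate 1 it no longer reached the line.

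Among the proteases that cut binding proteins and their inhibitors, 1 of 6 tested genes was called higher and 3 lower in CiCM against MEF, where the shares of all tested genes were 11.6% and 12.2%. Pappa, which cuts IGFBP4 and IGFBP5, was at 10.19, 9.54 and 8.94 in CiCM, 5.30, 4.78 and 2.52 in CM and 11.79, 11.81 and 11.85 in MEF. The 3 groups did not overlap, with CiCM 2.26 ± 0.59 below MEF (adjusted p = 0.00842) and CM 7.62 ± 0.59 below MEF (adjusted p = 7.84e-07). The CM level is under the signal line, and with 32 added to every signal the difference of CM from MEF was -6.07. Over its 3 probe sets that difference lay between -7.62 and -3.64, with all 3 called, while CiCM minus CM lay between 0.63 and 5.36, with 2 of 3 called. Pappa2, a related protease of IGFBP5, was 3.30 ± 0.39 lower in CiCM than in MEF (adjusted p = 4.79e-05), at 6.44, 5.65 and 5.03 in CiCM and 9.06, 9.18 and 8.78 in MEF.

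Htra1, a secreted serine protease reported to cut binding proteins, was 1.01 ± 0.09 higher in CiCM than in MEF (adjusted p = 4.81e-06), and both of its probe sets were called. The shifts of -0.06 with centring and -0.23 with levelling would each take this 1.01 under the minimum difference. Adam12, a metalloprotease that cuts IGFBP3 and IGFBP5, was 4.20 ± 0.21 higher in CiCM than in CM, at 10.90, 11.07 and 11.13 in CiCM, 7.39, 6.69 and 6.40 in CM and 11.23, 11.20 and 11.16 in MEF. Stc2, an inhibitor of pregnancy-associated plasma protein A that was named after its values were seen, was 1.35 ± 0.26 lower in CiCM than in MEF (adjusted p = 0.00127). In CM against MEF 4 of the 6 were called lower and none higher (21.8% and 22.1% of all tested genes), and in CiCM against CM 3 were called higher and none lower (16.5% and 19.0%).

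Among the receptor adaptors and PI3-kinase genes, 3 of 11 tested were called higher and 1 lower in CiCM against MEF (11.6% and 12.2% of all tested genes). Pik3r3 and Pik3r1, regulatory subunits of PI3-kinase, were 1.71 ± 0.17 and 1.41 ± 0.09 higher in CiCM than in MEF (adjusted p = 1.72e-05 and 5.66e-07), and all 4 probe sets of Pik3r1 were called. Pik3r1 was called higher in CM than in MEF as well, on 3 of its 4 probe sets, with means of 11.86 in CiCM, 11.98 in CM and 10.45 in MEF. Irs2, an insulin receptor substrate, was at 4.78, 3.47 and 3.65 in CiCM, 5.66, 8.33 and 8.35 in CM and 8.07, 7.78 and 7.93 in MEF. It was 3.96 ± 0.68 lower in CiCM than in MEF (adjusted p = 0.000661), or 2.50 lower with 32 added to every signal. CM replicate 1 again stood apart from its group, here on the low side.

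In CM against MEF 2 of these 11 genes were called higher and 2 lower (22.1% and 21.8% of all tested genes). In CiCM against CM 2 were called higher and 2 lower (16.5% and 19.0%), or 3 higher and 3 lower once CM replicate 1 was left out. Grb10 and Grb14, adaptors that inhibit insulin and IGF1 receptors, moved in opposite directions between these groups. On its brightest probe set Grb10 was 1.68 ± 0.10 higher in CiCM than in CM and 2.15 ± 0.10 lower in CM than in MEF, and Grb14 was 1.89 ± 0.10 lower in CiCM than in CM and 1.40 ± 0.10 higher in CM than in MEF. The 3 probe sets of Grb10 ran from 0.09 to 2.12 in CiCM minus CM, with 2 called, and 2 of them were called lower in CiCM against MEF, with differences down to -2.09. Shc1, the adaptor to Ras signalling, was 1.27 ± 0.10 lower in CM than in MEF.

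Further down the pathway 1 of 14 tested genes of Akt, mTOR and FoxO was called higher in CiCM than in MEF and none lower, against 11.6% and 12.2% of all tested genes. This was Trim63, a ubiquitin ligase of striated muscle and a target of FoxO factors, at 12.28, 11.78 and 11.88 in CiCM, 12.53, 13.10 and 12.95 in CM and 3.71, 2.12 and 5.15 in MEF. CiCM and CM lay far above MEF, whose signals were under the line, by 8.32 ± 0.57 for CiCM (adjusted p = 9.87e-07, or 6.40 with 32 added) and 9.21 ± 0.57 for CM (adjusted p = 1.47e-07). Fbxo32, the other muscle ubiquitin ligase known as atrogin-1, was 2.67 ± 0.17 lower in CiCM than in CM (adjusted p = 3.93e-07), at 8.34, 9.09 and 9.03 in CiCM, 11.48, 11.46 and 11.54 in CM and 9.26, 9.25 and 9.23 in MEF. Of its 3 probe sets 2 others were called lower in CiCM than in MEF as well. In CM against MEF 6 of the 14 were called higher (22.1% of all tested genes), and in CiCM against CM 3 were called lower (19.0%), among them Foxo3 (-1.42 ± 0.16). The count in CiCM against CM was 2 without CM replicate 1.

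In the growth hormone axis, through which growth hormone drives Igf1 expression in liver, 5 of 6 genes were called higher in CM than in MEF (22.1% of all tested genes) and 4 of 6 lower in CiCM than in CM (19.0%). Socs2, a feedback inhibitor of the axis, was at 9.57, 9.34 and 9.12 in CiCM, 11.75, 11.91 and 11.94 in CM and 8.17, 8.18 and 8.38 in MEF. Its 3 groups did not overlap, with CiCM 1.10 ± 0.13 above MEF (adjusted p = 5.57e-05) and 2.52 ± 0.13 below CM (adjusted p = 8.98e-08). Its 6 probe sets ran from 0.62 to 2.49 in CiCM minus MEF, with 3 of them called, and all 6 were called lower against CM. Cish, a related inhibitor, was 4.04 ± 0.21 lower in CiCM than in CM and was not called against MEF, at 7.79, 7.87 and 7.68 in CiCM, 11.29, 12.13 and 12.04 in CM and 7.91, 8.21 and 8.38 in MEF. Stat5a, a transcription factor that growth hormone activates, was 1.07 ± 0.16 higher in CiCM than in MEF (adjusted p = 0.000265), while its second probe set, at 0.68, was not called. The levelling shift of -0.23 would take the CiCM minus MEF differences of Socs2 and Stat5a under the minimum difference. Igf1 itself followed another order, since CM was not called higher than MEF for it.

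Of the IGF mRNA-binding proteins, Igf2bp1, which binds Igf2 mRNA, was at 7.90, 7.85 and 7.65 in CiCM, 4.15, 5.09 and 6.35 in CM and 9.60, 9.76 and 9.67 in MEF. CiCM lay between the other groups, with the CM arrays under the signal line, 1.88 ± 0.44 below MEF (adjusted p = 0.00448) and 2.61 ± 0.44 above CM (adjusted p = 0.000393). Igf2bp3 was called in no comparison.

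**Figure D5:**
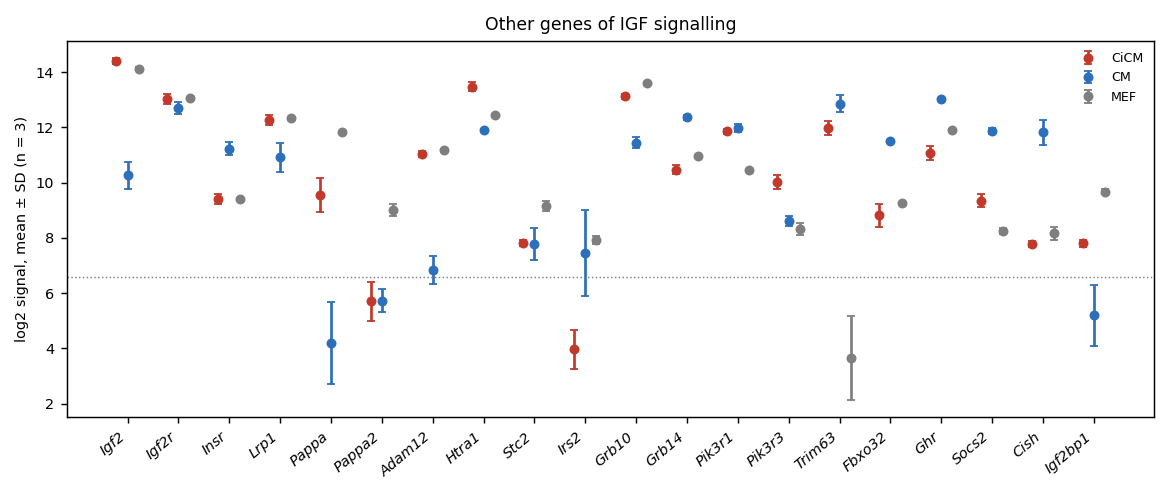
Mean log2 signal of 20 pathway genes in CiCM, CM and MEF, bars for SD over 3 arrays and a dotted line at 6.58. Igf2, Adam12 and Pappa are low in CM, Trim63 is high in CiCM and CM, and Socs2, Cish, Fbxo32 and Insr are highest in CM.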

How the data were processed

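The deposited values are log2 signals (45101 probe sets, 9 arrays) that the authors made with MAS5, per the submitters' processing notes (no version given). The scale is stated nowhere and was read from the values, whose linear mean, trimmed by 2% at each end, came to 500.003 for each array. RNA extraction used TRIzol and labelling a 3' amplification kit, according to the protocols in the labels. Scan dates, batches and detection calls were not used here, so groups and batches cannot be told apart. Precision is limited by having 3 arrays per group.

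Gene symbols came from the platform annotation in GEO, possibly outdated (34945 with 1 symbol, 932 with several, 9160 with none and 64 controls). Each gene was read from its probe set with the highest mean, and 5634 of 18193 genes under 6.58 in every group mean were left out. Differences were tested with limma 3.58.1 in R 4.3.3 (lmFit, then eBayes with trend) in 1 fit of 9 arrays, 2-sided, with Benjamini-Hochberg adjustment over all 12559 genes. The design foresaw 32 added to linear signals, and the deposited log2 values were used unchanged, with added constants (1, 32 and a larger one) as alternatives. The test was checked on simulated data.

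Members, lists and the naming rule were chosen with earlier results of these data known. Named were all 8 members, per list and comparison the 2 highest and 2 lowest called genes, all other ligands, receptors and binding proteins, and the 2 genes most like each member. The titles do not say whether replicate numbers pair the samples. The deviations of 9 same-numbered pairs correlated between -0.02 and 0.07 over all tested genes, which cannot exclude a pairing that moves few genes. Other alternatives were another filter, scaling, probe set rule, spread model or array left out. Promoters came from RefSeq (GRCm38.p6), and figures from matplotlib 3.10.9 in Python 3.11.15.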

Additional observations from a re-analysis of the deposited data

How the results depend on the processing

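Of 576 values of single members under 24 alternatives, 537 kept their direction and their side of the threshold, 9 lost the call, 22 gained one and 8 turned sign. Several alternatives could not change the direction. Another filter, block or minimum difference leaves the difference as it was. So does a fit of only the groups compared, a fit without a variance trend, or an array left out of the group not compared. Only its adjusted p or its call can then move. Array weights did move differences, for CM minus MEF from -0.87 to -1.10 for Igfbp3 and from -0.42 to -0.71 for Igfbp6. The calls of Igf1 and Igfbp3 in CiCM against MEF and of Igf1, Igfbp2, Igfbp3 and Igfbp5 in CiCM against CM held under all 24. The values that turned were small. For CM minus MEF, Igfbp4 came to -0.039 with centring on array medians, -0.48 with levelling on hybridisation controls and -0.092 with the mean over probe sets. With 1 array left out at a time it ran from -0.11 (without CM replicate 1) to 0.61, and Igfbp6 from -1.25 (without CM replicate 1) to 0.13 (without CM replicate 3). For CiCM minus CM, Igf1r came to 0.15 with centring on array medians, 0.41 with levelling on hybridisation controls and 0.32 with the mean over probe sets. The number of members called in CM against MEF, 2 in the report, was 5 with centring on array medians and with levelling on hybridisation controls, and 4 with the mean over probe sets and with no minimum difference. Leaving out 1 array at a time gave between 2 and 4 members, with 4 only without CM replicate 1. The number of all genes called in CiCM against MEF, 2987 in the report, was 1927 with the largest constant added to the signals and 6529 with no minimum difference. With no minimum difference it was 8790 in CM against MEF, 5515 in the report, and 8089 in CiCM against CM, 4462 in the report. Scaling moved the split of calls. In CiCM against MEF 1451 genes were higher and 1536 lower, with levelling 1133 and 2079. In CM against MEF 2779 were higher and 2736 lower, with centring 2070 and 3912, with levelling 1523 and 5579. In CiCM against CM 2075 were higher and 2387 lower, with centring 2987 and 1760, with levelling 4078 and 1357. With the replicate number as a block 3, 2 and 5 members were called in the 3 comparisons, as without it, and 2978, 5508 and 4434 genes. The titles state no link between samples beyond that number. The cause of these shifts was not tested. The limits are 3 arrays per group, dim signals for Igfbp2 in CM, and 1 CM array that stood apart.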
